A study of Drosophila melanogaster with 8 samples.

Results

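The genes described here are 8 developmental regulators, chosen by gene name out of the 14094 genes in the deposited tables. They are the Hox genes Scr, Antp, Ubx, abd-A and Abd-B, the Hox cofactor genes hth and exd, and the trunk gene tsh. Of these 8 genes, 7 passed the filter on low counts and were tested, among 8957 genes in all. Scr had a count of 0 in every library and was not tested.

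Hox proteins are homeodomain transcription factors that give body segments their identity along the axis from head to tail, and in flies their genes lie in the Antennapedia and bithorax complexes. Homothorax carries its partner Extradenticle into the nucleus, and both bind DNA together with Hox proteins, while the zinc-finger protein Teashirt acts with them in the trunk. Polycomb group proteins keep Hox genes silent outside their domains and trithorax group proteins keep them active within them. In the embryo, abd-A and Abd-B are needed in the mesoderm for the somatic cells of the gonad to form.

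The libraries were RNA sequencing libraries from ovaries of adult Drosophila melanogaster, dissected 1 to 3 days after eclosion. In the series, stwl, which encodes the chromatin-associated protein Stonewall, was targeted by RNA interference under a germline driver, abbreviated GKD for germline knockdown in the labels. The driver nosGAL4 acts in germline stem cells and their progeny, and bamGAL4 acts in dividing germline cysts. There were 4 groups of 2 libraries. The nosGAL4 control libraries had the genotype nosGAL4;MKRS/TM6 and the nosGAL4 knockdown flies nosGAL4;stwl RNAi/TM6. The bamGAL4 control libraries were listed as bamGAL4 with no balancer and the bamGAL4 knockdown flies as bamGAL4>stwl RNAi/TM6. With bamGAL4, the TM6 balancer and the stwl hairpin therefore cannot be told apart. With nosGAL4, MKRS is listed only for the controls and the hairpin only for the knockdown flies, so these cannot be told apart either. TM6 is a chromosome 3 balancer that is marked by a mutant Ubx allele. The hairpin was targeted to germ cells, whereas the RNA came from whole ovaries, which also hold follicle cells, sheath muscle and other somatic cells. The labels do not say whether the 2 libraries of a group came from separate sets of flies, so p-values measure only the spread between these libraries, which may be technical.

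The targeted gene was not lower in the libraries labelled GKD. Its level, in CPM (counts relative to library size, scaled by TMM factors), was 23.1 and 16.9 in the nosGAL4 control libraries and 61.1 and 27.7 in the nosGAL4 libraries labelled GKD. It was 18.2 and 21.0 in the bamGAL4 control libraries and 23.2 and 29.6 in the bamGAL4 libraries labelled GKD. It was called higher with nosGAL4 (log2 fold change 1.15, SE 0.37, edgeR adjusted p = 0.0203), a call kept in 7 of 13 alternative analyses, and was not called with bamGAL4 (0.43, SE 0.36, edgeR adjusted p = 0.313). Whether reads of the hairpin were counted as stwl was not tested. Total counts ran from 7473859 to 12174983 per library. Germline markers fell in the libraries labelled GKD with both drivers. The summed CPM of 10 germline markers was 3504 and 3615 in the nosGAL4 control libraries against 727 and 414, and 2872 and 2595 in the bamGAL4 control libraries against 288 and 367, with 9 of the 10 called lower with either driver. The 14 muscle sheath markers were all called higher with both drivers. Over all genes tested, 33.5% were called higher and 25.7% lower with nosGAL4, and 35.0% and 33.1% with bamGAL4. The summed CPM of the muscle sheath markers lay between 832 and 963 in the control libraries and between 45127 and 58928 in the libraries labelled GKD. Germline markers defining the ovary were thus present in the controls, and their sum in the libraries labelled GKD was 0.160 of the control sum with nosGAL4 and 0.120 with bamGAL4. In bulk samples, fewer cells of a type and less RNA per cell cannot be told apart.

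The Hox genes were nearly undetected in control ovaries. With a detection floor of 3 counts in each library, Scr, Ubx and Abd-B were at or below the floor in both nosGAL4 control libraries. In the bamGAL4 control libraries, Scr, Antp, Ubx, Abd-B and hth were at or below it. A count of 3 corresponded to between 0.238 and 0.405 CPM, depending on the library. Summed over the 5 Hox genes, the controls held 21 and 22 counts with nosGAL4 and 3 and 8 counts with bamGAL4. In the libraries labelled GKD only Scr stayed at or below the floor, and the 5 genes together had 3009 and 5111 counts with nosGAL4 and 7625 and 7612 with bamGAL4.

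**Figure D1:**
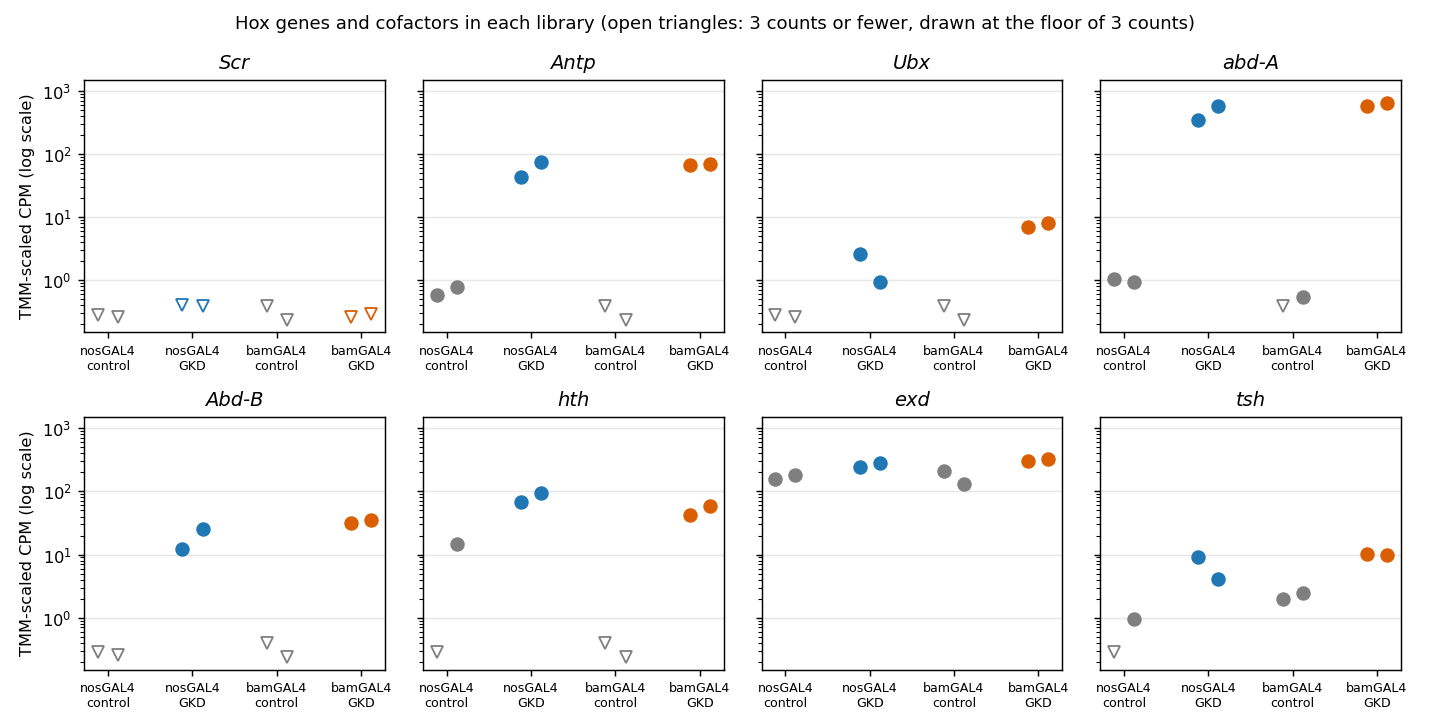
TMM-scaled CPM (vertical axis, log scale) of each of the 8 genes in each of the 8 libraries, 1 point per library, with open triangles for libraries with 3 counts or fewer, drawn at the level that 3 counts would give. Antp, abd-A and Abd-B stood far above both controls with both drivers, exd was high in every library, and Scr was at 0 throughout.

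With nosGAL4, 5 of the 7 tested genes were called higher and 0 lower at an edgeR adjusted p under 0.05, beside 33.5% of all genes tested called higher. The 5 were Antp, Ubx, abd-A, Abd-B and tsh. At an unadjusted p under 0.05 the counts were 6 and 0, and with DESeq2 they were 6 and 0. With bamGAL4 all 7 were called higher and 0 lower by edgeR and by DESeq2, beside 35.0% of all genes. Leaving out the second bamGAL4 control or the second bamGAL4 library labelled GKD gave 4 calls in place of 7, and leaving out the first of either gave 5. Antp, Ubx, abd-A, Abd-B and hth passed the filter only because of the libraries labelled GKD, as only exd and tsh pass it on the control libraries alone, so these counts are in part set by the filter and are a description. The libraries labelled GKD lay above the controls without overlap for all 7 genes with both drivers, beside 42.1% of all genes with nosGAL4 and 43.4% with bamGAL4.

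The gene abd-A, which specifies the identity of anterior abdominal segments, had the highest level of the Hox genes. It had 11 counts in each nosGAL4 control library, 2576 and 4345 in the nosGAL4 libraries labelled GKD, 2 and 7 in the bamGAL4 control libraries and 6416 and 6478 in the bamGAL4 libraries labelled GKD. As CPM these were 1.06 and 0.952 against 348 and 576 with nosGAL4, and 0.262 and 0.554 against 569 and 644 with bamGAL4. It went from at most 11 counts to at least 348 CPM with both drivers, and no control library came near the others. The log2 fold change was 8.83 with nosGAL4 (SE 0.40, edgeR adjusted p = 3.27e-07) and 10.39 with bamGAL4 (SE 0.44, edgeR adjusted p = 1.99e-07). Ordered by log2 fold change, abd-A stood at place 130 of 8957 with nosGAL4 and at place 24 with bamGAL4. Called rises of at least 64-fold were seen in 7.31% of all genes with nosGAL4 and in 7.60% with bamGAL4.

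Antp, which specifies the second thoracic segment and leg rather than antenna, rose with both drivers. Its CPM was 0.576 and 0.779 against 43.9 and 75.7 with nosGAL4, and 0.131 and 0 against 68.0 and 69.1 with bamGAL4. All 4 libraries labelled GKD held at least 325 counts, while no control held more than 9. With nosGAL4 the log2 fold change was 6.43 (SE 0.45, edgeR adjusted p = 1.48e-06). With bamGAL4 the controls held 1 count in all, so the change is given as the ratio of scaled summed counts, which was 1388 with a 95% counting interval of 249 to 54858 (edgeR adjusted p = 5.69e-07). Counting intervals cover counting error only, since reads are not independent molecules.

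Abd-B, which specifies posterior abdominal segments and the genitalia, rose to a lower level. Its CPM was 0.192 and 0 in the nosGAL4 control libraries against 12.03 and 24.9, and 0 and 0.0792 in the bamGAL4 control libraries against 32.1 and 35.7. The nosGAL4 control libraries held 2 counts in all and the bamGAL4 control libraries 1. The ratio of scaled summed counts was 204 with nosGAL4 (95% counting interval 55.9 to 1690, edgeR adjusted p = 1.69e-05) and 684 with bamGAL4 (122 to 27073, edgeR adjusted p = 6.06e-06). Abd-B has 10 annotated transcripts of unequal length, and the deposited values per gene do not separate them.

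Ubx, which specifies the third thoracic segment and the haltere, was the lowest of the detected Hox genes in the libraries labelled GKD. It had 2 counts in each nosGAL4 control library and 19 and 7 in the nosGAL4 libraries labelled GKD, or 0.192 and 0.173 CPM against 2.57 and 0.928. In the bamGAL4 groups it had 0 counts in both controls and 80 counts in each library labelled GKD, or 7.09 and 7.95 CPM. With bamGAL4 the level was 50.6-fold that of a floor of 3 counts over the control group (edgeR adjusted p = 0.000323). The lower 95% counting limit of the ratio was 40.7. With nosGAL4 the log2 fold change was 3.17 (SE 0.96, edgeR adjusted p = 0.0182). That call was lost without the first nosGAL4 library labelled GKD (2.27, edgeR adjusted p = 0.082) and without either nosGAL4 control (edgeR adjusted p = 0.0645 and 0.0748).

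The make-up of the Hox counts was much alike across the 4 libraries labelled GKD. The share of abd-A was 85.6% and 85.0% with nosGAL4 and 84.1% and 85.1% with bamGAL4. Antp took 10.8%, 11.2%, 10.1% and 9.13% in the same order, and Abd-B took 2.96%, 3.68%, 4.75% and 4.72%. Both bamGAL4 libraries lay above both nosGAL4 libraries in the share of Abd-B. The share of Ubx was 0.631% (Wilson 95% interval 0.405 to 0.984) and 0.137% (0.0664 to 0.282) with nosGAL4, and 1.05% (0.844 to 1.30) in the first bamGAL4 library. For Scr, which specifies the labial and first thoracic segments, 0 of 3009 to 7625 counts gave upper Wilson 95% limits of 0.128% to 0.0504%. The control totals of 3 to 22 counts were too small for a comparison of shares.

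**Figure D2:**
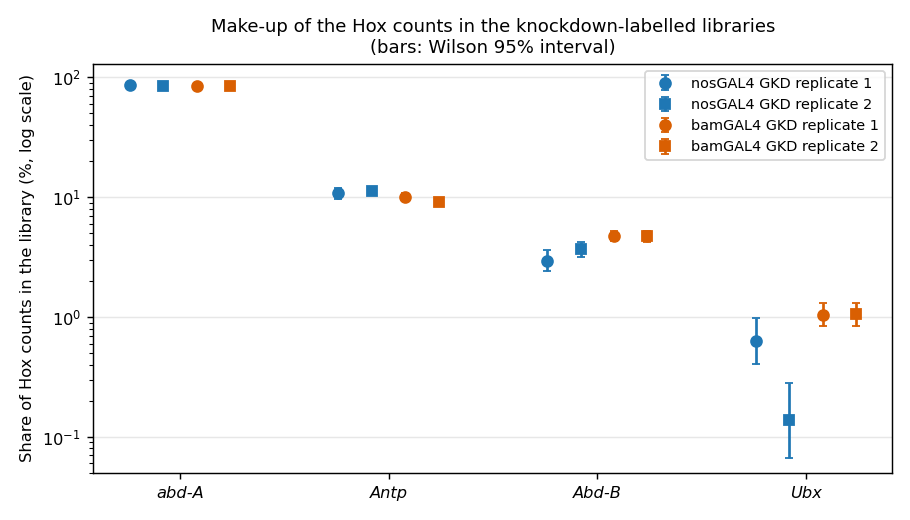
Share of each Hox gene in the summed counts of the 5 Hox genes (vertical axis, percent, log scale) in the 4 libraries labelled GKD, with Wilson 95% intervals as bars. Shares of abd-A lay between 84.1% and 85.6% in all 4 libraries, and the nosGAL4 shares of Ubx were 0.631% and 0.137%. Scr, at 0, is not drawn.

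The cofactor genes behaved unlike each other. The gene exd, for the Pbx-type homeodomain cofactor, was expressed in every library, at 159 and 179 CPM in the nosGAL4 control libraries and 213 and 132 CPM in the bamGAL4 control libraries. In the libraries labelled GKD it reached 240.3 and 279 CPM with nosGAL4 and 299 and 322 CPM with bamGAL4. The groups did not overlap, but the differences were small beside those of the Hox genes. The log2 fold change was 0.62 with nosGAL4 (SE 0.25, edgeR adjusted p = 0.0556) and 0.85 with bamGAL4 (SE 0.25, edgeR adjusted p = 0.013). The median of all genes was 0.11 and -0.06 on the same scale. The bamGAL4 call was lost without the second bamGAL4 control (0.54, edgeR adjusted p = 0.0626), without the second bamGAL4 library labelled GKD (0.79, edgeR adjusted p = 0.0766), and with a correction for transcript length (0.52, edgeR adjusted p = 0.109).

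The gene hth, for the Meis-type cofactor that brings Extradenticle into the nucleus, differed between the nosGAL4 control libraries. It had 0 counts in the first and 169 in the second, or 0 and 14.6 CPM. In the nosGAL4 libraries labelled GKD it had 68.1 and 94.8 CPM, in the bamGAL4 control libraries 0.262 and 0, and in the bamGAL4 libraries labelled GKD 41.9 and 59.5. With nosGAL4 the log2 fold change was 3.46 (SE 1.52) and hth did not pass the test (edgeR adjusted p = 0.108). Without the first nosGAL4 control it passed (2.46, edgeR adjusted p = 0.00532), as it did without the second (edgeR adjusted p = 5.66e-05), where the remaining control was at 0 and the mean of the libraries labelled GKD was at least 283-fold higher than the floor of 3 counts in that library. With bamGAL4 the ratio of scaled summed counts was 509 (95% counting interval 141 to 4207, edgeR adjusted p = 0.026), with 2 counts in the controls. Leaving out any 1 of the 4 bamGAL4 libraries ended that call, with edgeR adjusted p from 0.0618 to 0.0987, and so did testing with no filter (edgeR adjusted p = 0.0517), although a fit to those 4 libraries alone kept it (edgeR adjusted p = 4.38e-07).

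The gene tsh, which promotes trunk identity, was low throughout. It had 0 and 0.952 CPM in the nosGAL4 control libraries against 9.05 and 4.11, and 1.96 and 2.45 CPM in the bamGAL4 control libraries against 10.3 and 9.94. The log2 fold change was 3.72 with nosGAL4 (SE 0.97, edgeR adjusted p = 0.00818) and 2.18 with bamGAL4 (SE 0.85, edgeR adjusted p = 0.0431). Both calls were weak. The nosGAL4 value was 2.75 without the first nosGAL4 control, which held 0 counts, and the call was kept with 8.97 without the second, a fitted value against a control at 0 that is no bound. With nosGAL4 the call was lost in a fit to the 4 nosGAL4 libraries alone (edgeR adjusted p = 0.0543). With bamGAL4 it was lost without any 1 of the bamGAL4 libraries (edgeR adjusted p from 0.142 to 0.181), with scaling by library totals (edgeR adjusted p = 0.0584) and with a correction for transcript length (1.10, edgeR adjusted p = 0.269).

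**Figure D3:**
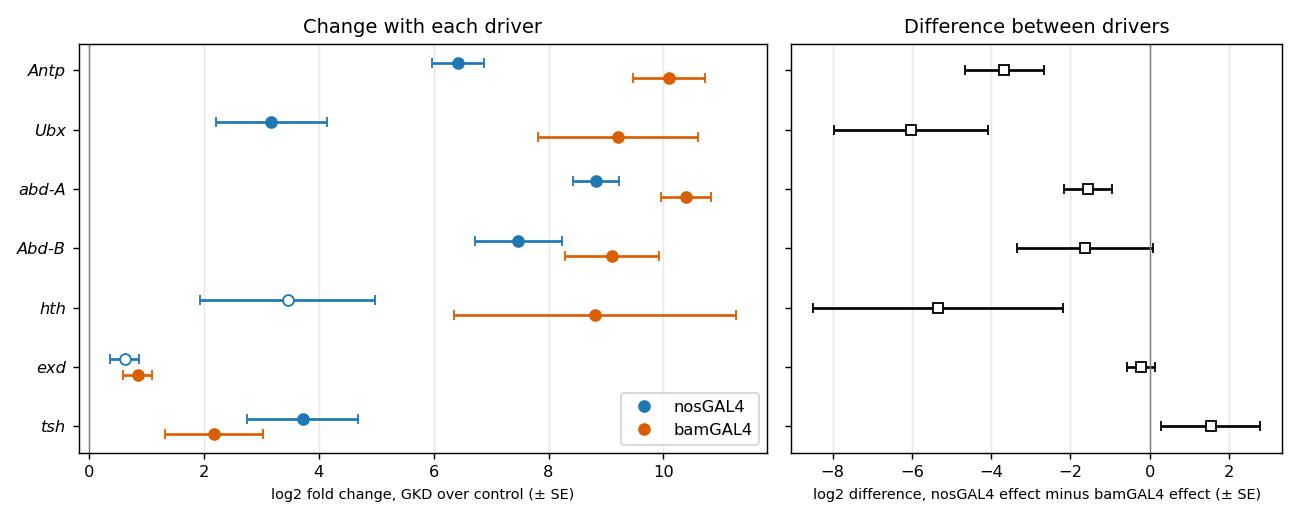
Log2 fold change of the 7 tested genes with each driver (left, filled where called at an edgeR adjusted p under 0.05, open where not) and how far the nosGAL4 change exceeds the bamGAL4 change (right), with SE as bars. Changes of abd-A, Antp and Abd-B were large with both drivers and that of exd was below 1, and none of the 7 differences was called. Fitted values of genes with 0 to 3 control counts (Antp, Ubx, Abd-B and hth with bamGAL4, Abd-B with nosGAL4) depend on the prior count and are no bound.

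None of the 7 genes changed differently between the drivers at an edgeR adjusted p under 0.05, beside 2.68% of all genes (1.52% higher and 1.16% lower). At an unadjusted p under 0.05 the count was 3, namely Antp, Ubx and abd-A, each with the smaller rise under nosGAL4, and with DESeq2 it was 0. For abd-A the nosGAL4 log2 change was lower by 1.56 (SE 0.60, edgeR adjusted p = 0.153). The fitted differences were -3.67 for Antp (SE 1.00, edgeR adjusted p = 0.0686) and -6.03 for Ubx (SE 1.94, edgeR adjusted p = 0.108), both resting on bamGAL4 control libraries with 1 or 0 counts. For exd the difference was -0.23 (SE 0.36, edgeR adjusted p = 0.732). When the second nosGAL4 library labelled GKD was left out, the differences of Antp (-4.14, edgeR adjusted p = 0.0104) and abd-A (-1.98, edgeR adjusted p = 0.0295) were called. Scaling to ribosomal protein genes gave 4 calls, of Antp, Ubx, abd-A and exd.

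For 6 of the 7 tested genes, all but hth, the libraries labelled GKD differed more with nosGAL4 than with bamGAL4. Over all genes that nosGAL4 pair was also less alike (Pearson's r of log2(CPM + 1) 0.971 against 0.995). The share of all genes that differed more with nosGAL4 was not computed, so the count describes the library pairs rather than these genes. The level in the first nosGAL4 library was 0.604 of that in the second for abd-A, 0.580 for Antp, 0.482 for Abd-B and 0.718 for hth. Ubx and tsh went the other way, with ratios of 2.77 (95% counting interval 1.11 to 7.78) and 2.20 (1.42 to 3.49). The bamGAL4 ratios lay between 0.704 for hth and 1.03 for tsh. Germline markers were also higher in the first nosGAL4 library, at 727 against 414 CPM in sum, and their part in these ratios was not tested.

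Levels were set in order per kilobase of the longest annotated transcript. In the nosGAL4 control libraries exd led with 57.7 CPM per kb, followed by hth with 1.12, abd-A with 0.191, Antp with 0.138, tsh with 0.101, Ubx with 0.0426, Abd-B with 0.0117 and Scr at 0, where the libraries of hth and abd-A, of Antp and tsh, of tsh and Ubx, and of Abd-B and Scr overlapped. In the nosGAL4 libraries labelled GKD exd had 88.7 and abd-A 87.7 CPM per kb. Those 2 genes could not be set in order, since their libraries ranged from 82.0 to 95.3 and from 66.1 to 109. Below them, hth with 12.4 and Antp with 12.2 CPM per kb overlapped too, as did Abd-B with 2.26 and tsh with 1.39, and Ubx followed with 0.408.

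In the bamGAL4 control libraries exd led with 58.9 CPM per kb, tsh had 0.467 and abd-A 0.0774, and the rest lay below. In the bamGAL4 libraries labelled GKD abd-A had 115 and exd 106 CPM per kb, with overlapping libraries. Antp had 14.0, hth 7.74, Abd-B 4.14, tsh 2.14 and Ubx 1.76 CPM per kb, each apart from its neighbours. Per length, abd-A thus reached the level of exd with both drivers, from far below it in the controls.

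The 4 detected Hox genes lie in 2 clusters on chromosome arm 3R. In the coordinates of annotation BDGP6.54, which are those of dm6, Antp spans 3R:6896253-6999228 and Scr 3R:6823120-6849981 in the Antennapedia complex. In the bithorax complex Ubx spans 3R:16656623-16734426, abd-A 3R:16807214-16830049 and Abd-B 3R:16927212-16972236, all on the minus strand. Outside the complexes, hth spans 3R:10507561-10639568 on the minus strand, exd X:15992468-15996509 on the plus strand and tsh 2L:21828593-21837011 on the plus strand. Other annotated genes overlap Scr, Antp, Ubx, Abd-B and hth, and reads of such neighbours may have been counted with them. Both genes overlapping Antp lie on its strand, as do 3 of 4 for hth and 2 of 5 for Scr, so no strand setting would separate those. For Ubx and Abd-B all lie on the opposite strand, and the strand setting of the counting is not given in the sources used here. None of these overlapping genes is listed in the tables under its own identifier. No annotated gene overlaps abd-A, exd or tsh. In the tables the genes carry the identifiers FBgn0003339 (Scr), FBgn0260642 (Antp), FBgn0003944 (Ubx), FBgn0000014 (abd-A), FBgn0000015 (Abd-B), FBgn0001235 (hth), FBgn0000611 (exd) and FBgn0003866 (tsh).

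Neighbouring genes in the complexes did not rise as a block. Of 19 genes of the Antennapedia complex in the tables, 14 had at most 3 counts in every library and 11 were at 0 throughout. The head Hox genes pb and Dfd were among those at 0, and lab, which specifies the most anterior Hox domain, had at most 1 count in a library. Of the 3 tested genes of this complex, Antp rose and bcd fell. The gene bcd, which patterns the anterior of the embryo from maternal RNA and is made in germ cells, had 94.6 and 96.3 CPM in the nosGAL4 control libraries against 46.2 and 11.1, and 74.4 and 84.0 CPM in the bamGAL4 control libraries against 0 and 0.0994. Its log2 change with nosGAL4 was -1.73 (SE 0.55, edgeR adjusted p = 0.0258), a call lost without either nosGAL4 control (edgeR adjusted p = 0.0829 and 0.088). With bamGAL4 it fell to 1 count in all (edgeR adjusted p = 5.08e-05). The third, the cuticle protein gene Ccp84Ag, had 0 counts in the controls and 14 and 6 counts with nosGAL4 and 41 and 20 with bamGAL4 (edgeR adjusted p = 0.0113 and 0.00437). In the bithorax complex, Ubx, abd-A and Abd-B rose and the other 2 genes in the tables were at 0 in every library.

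**Figure D4:**
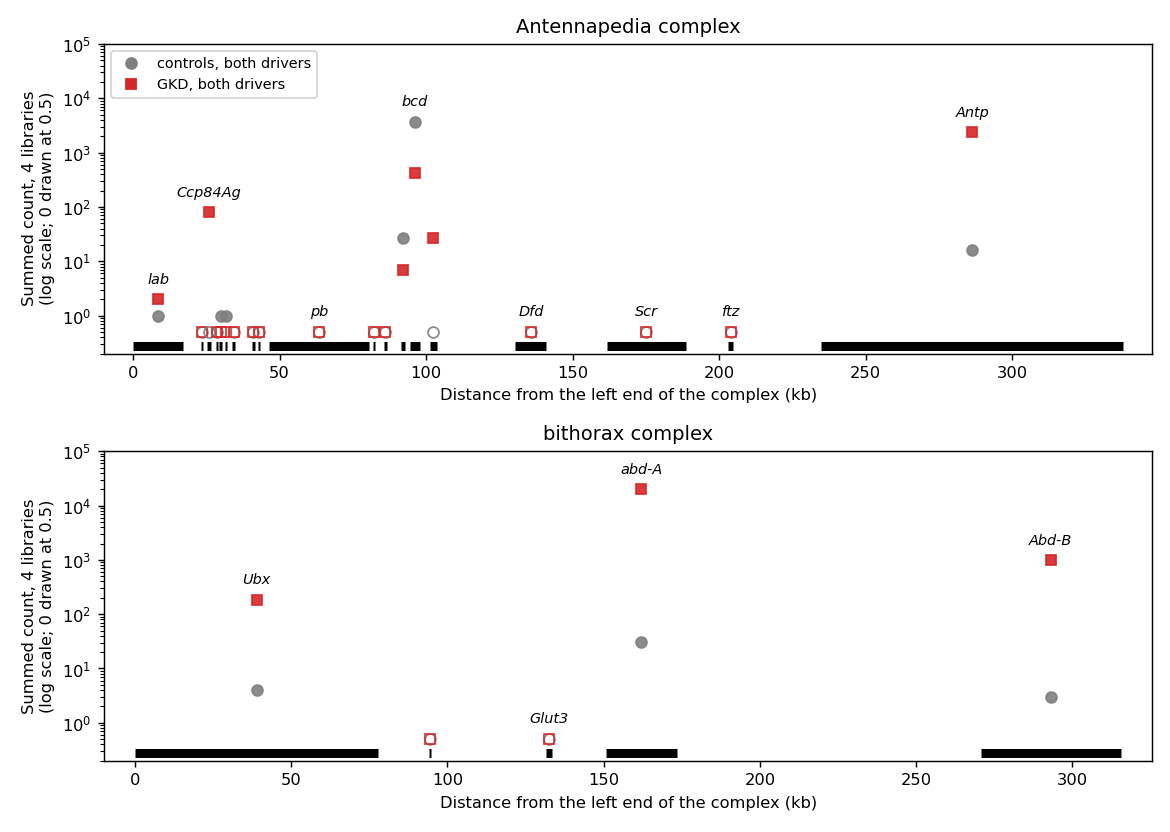
Counts summed over the 4 control libraries (grey circles) and the 4 libraries labelled GKD (red squares) for each gene of the 2 Hox complexes in the tables, on a log scale with 0 drawn as an open symbol at 0.5, against the distance in kb from the left end of the complex. Black bars mark the extent of each gene. Antp and the 3 bithorax Hox genes stood above the controls, bcd stood below, and Scr, pb, Dfd and ftz were at 0.

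Markers of several somatic cell types moved with the Hox genes. Over all genes tested, 33.5% were called higher with nosGAL4 and 35.0% with bamGAL4. The summed CPM of the muscle sheath list was 53.4-fold higher with nosGAL4 and 66.1-fold with bamGAL4, and that of the neuron list 41.2-fold and 117-fold, with 6 of 7 and 5 of 7 tested markers called higher. The list of niche, escort and early follicle cells was 13.8-fold and 13.9-fold higher, with 11 of 12 tested markers called higher with either driver. The list of oviduct and spermatheca was 5.65-fold and 11.2-fold higher, with 4 of 6 called higher. That of haemocytes and fat body was 6.10-fold and 7.32-fold higher, with 10 of 11 called higher. Most of its sum in the controls was Yp1, which was called with neither driver. Yp1 had 1526 and 1390 CPM of 1645 and 1539 in the nosGAL4 controls, and 2293 and 4378 of 2369 and 4465 in the bamGAL4 controls. The median log2 change of the list was 7.90 with nosGAL4 and 9.28 with bamGAL4. Of 7 listed markers of epidermis and trachea, 4 were tested (btl, trh, vvl and grh), and all were called higher. Each had at most 0.520 CPM in every control, so the filter in part sets this count. Of the rest, svb was not in the tables and sha was at 0 in every library. The gene f had 1.73 and 0.606 CPM in the nosGAL4 controls against 0 and 0, and 0.524 and 0.633 in the bamGAL4 controls against 0.886 and 0.497. The sums over the 6 listed genes in the tables were 25.5-fold and 88.3-fold higher. Follicle cell markers were 1.71-fold and 2.14-fold higher, with 4 of 8 called higher with nosGAL4 and 5 of 8 with bamGAL4. Most of their sum in each library was Yp2 and Yp3, as with 1734 and 694 of 2539 CPM in the first nosGAL4 control. Yp2 was called with neither driver and Yp3 with bamGAL4 alone. The median log2 change of the follicle cell list was 1.59 with nosGAL4 and 1.77 with bamGAL4. Called lower were slbo of this list with bamGAL4 (log2 change -3.14) and Hr39 of the oviduct list with nosGAL4 (-1.17). Of 12 neuron markers, para, Rdl, ChAT, VAChT and VGlut were at 0 in all controls. In the libraries labelled GKD, Rdl stayed at 0, ChAT, VAChT and VGlut had at most 0.994 CPM, and para had 0.266 to 6.76 CPM. Most of the neuron sum in those libraries came from elav, cpx and nrv3. The panneural gene elav had 72.4 and 127 CPM there with nosGAL4 and 94.0 and 121 CPM with bamGAL4, and Syt1 was called with neither driver.

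Set against each of those marker lists, abd-A, Antp and Abd-B were higher in the libraries labelled GKD with both drivers, without overlap. The gene exd was lower except against follicle cell markers, whose sum was mostly Yp2 and Yp3, and the rest were mixed. Per 1000 CPM of follicle cell markers exd overlapped, at 62.6 and 72.9 CPM in controls against 43.4 and 92.9 with nosGAL4. With bamGAL4 it had 65.1 and 23.4 CPM in controls against 30.6 and 34.5. For each 1000 CPM of muscle sheath markers, abd-A had 1.26 and 0.989 CPM in the nosGAL4 control libraries against 7.71 and 11.3, and 0.315 and 0.634 CPM in the bamGAL4 control libraries against 9.65 and 11.9. For each 1000 CPM of niche and escort markers it had 2.19 and 1.75 CPM against 57.7 and 71.2 with nosGAL4, and 0.782 and 2.11 CPM against 145 and 147 with bamGAL4. All 4 of these comparisons showed no overlap. Antp per 1000 CPM of niche and escort markers was 1.19 and 1.43 CPM against 7.28 and 9.35 with nosGAL4. With bamGAL4 it was 0.391 and 0 CPM against 17.3 and 15.7. Antp per 1000 CPM of muscle markers was 0.685 and 0.809 CPM against 0.973 and 1.48 with nosGAL4, a much smaller gap than for abd-A, and 0.157 and 0 CPM against 1.15 and 1.28 with bamGAL4. Ubx by the same measure was lower with nosGAL4, at 0.228 and 0.180 CPM in the controls against 0.0569 and 0.0181, and higher with bamGAL4, at 0 and 0 against 0.120 and 0.147. Abd-B per 1000 CPM of muscle markers was 0.228 and 0 CPM in the controls against 0.266 and 0.487 with nosGAL4. With bamGAL4 it was 0 and 0.0905 CPM against 0.544 and 0.661. The control values rest on 11 counts or fewer in a library for these 4 Hox genes. The cofactor gene exd was lower by this measure, at 189 and 186 CPM against 5.32 and 5.45 with nosGAL4 and 256 and 151 against 5.07 and 5.97 with bamGAL4. The gene tsh was lower with bamGAL4, at 2.36 and 2.81 CPM against 0.174 and 0.184, and overlapped with nosGAL4, at 0 and 0.989 against 0.201 and 0.0803. For hth the nosGAL4 groups overlapped too, at 0 and 15.2 CPM against 1.51 and 1.85. The part of the cell types in the rise of the Hox genes was not tested further.

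**Figure D5:**
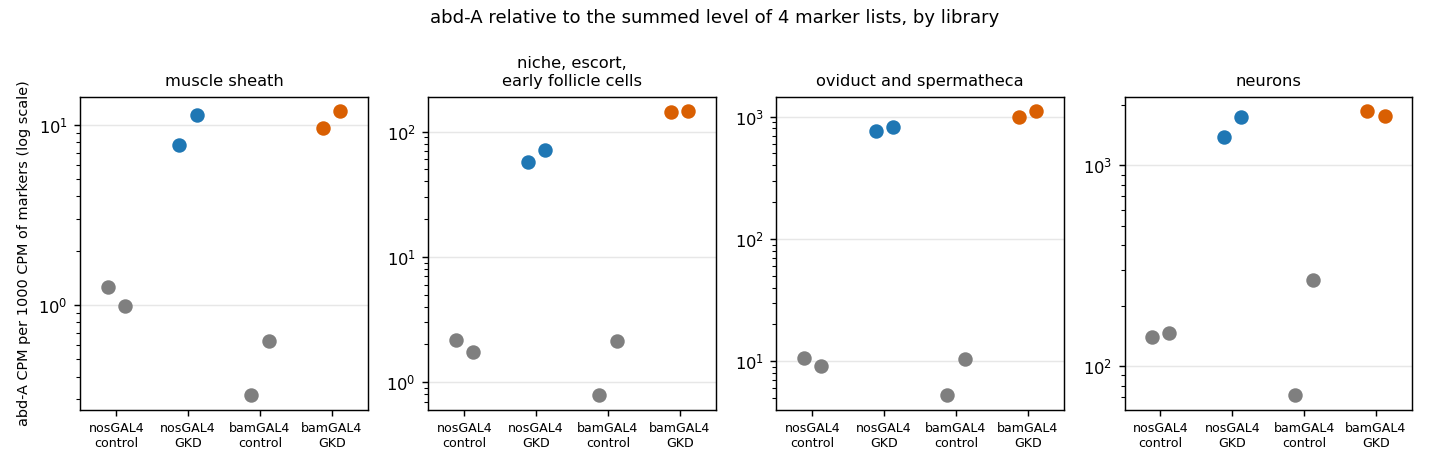
CPM of abd-A per 1000 CPM of the summed markers of 4 cell type lists (vertical axes, log scale), 1 point per library. In every panel both libraries labelled GKD lay above both controls of the same driver. For the muscle sheath list the nosGAL4 values were 1.26 and 0.989 in controls against 7.71 and 11.3.

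Other Hox partners and relatives of the cofactors were mostly low. Of 16 genes listed, 8 were tested, and 3 were called higher and 0 lower with nosGAL4, beside 33.5% and 25.7% of all genes, and 5 higher and 1 lower with bamGAL4, beside 35.0% and 33.1%. The zinc-finger gene disco-r, which acts with Hox proteins in head segments, rose from 0.959 and 0.952 to 92.2 and 184 CPM with nosGAL4, a log2 change of 7.16 (SE 0.44, edgeR adjusted p = 7.08e-07). Its paralogue disco rose by 6.63 on the log2 scale with nosGAL4 (SE 0.56, edgeR adjusted p = 4.89e-06). The Iroquois-class homeobox gene mirr, which patterns the follicle cells, rose by 2.48 with nosGAL4 and 3.71 with bamGAL4. The maternal homeobox gene cad fell with bamGAL4, from 127 and 117 CPM to 2.66 and 0.894 (edgeR adjusted p = 0.00579), a call lost without the second bamGAL4 library labelled GKD (edgeR adjusted p = 0.0533). The tsh paralogue tio was called higher with bamGAL4 (3.02, edgeR adjusted p = 0.0411), and the TALE genes achi and vis were called with neither driver.

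Of 20 known Hox targets in other tissues, 11 were tested, and 9 were called higher and 0 lower with each driver. Beside this, 33.5% and 35.0% of all genes were called higher. The rest of the list did not pass the filter on low counts, so that the filter in part sets these counts. Of the 8 targets at 0 in all controls only salm was tested, and it was called higher with bamGAL4 alone. In the libraries labelled GKD, vg and tin stayed at 0, and fkh, wg, Dll, ems and en had at most 2.25 CPM. The BMP ligand gene dpp, a target in the visceral mesoderm, had 2.21 and 1.99 CPM in the nosGAL4 control libraries against 87.7 and 144, and 1.31 and 2.30 CPM in the bamGAL4 control libraries against 120 and 118. Its log2 change was 5.78 with nosGAL4 (SE 0.37) and 5.99 with bamGAL4 (SE 0.38). The homeobox gene ct rose by 3.64 and 3.92 on the log2 scale. The adhesion protein gene Con and the BTB-domain gene bab2 rose from less than 0.5 CPM in each control to at least 31.9 and 58.4 CPM. Genes of this list are markers of other cell types too, as bab2 and ct are here, so their rise is not independent of the markers above.

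Genes for the regulators of Hox expression moved both ways. Of 21 Polycomb group genes, 4 were called higher and 13 lower with nosGAL4, beside 33.5% and 25.7% of all genes, and 5 higher and 9 lower with bamGAL4, beside 35.0% and 33.1%. Their median log2 change was -0.92 and -0.48, beside 0.11 and -0.06 for all genes. With scaling to ribosomal protein genes, the bamGAL4 split turned to 8 higher and 2 lower. With a correction for transcript length it was 2 higher and 14 lower, and 2 and 16 with nosGAL4. Without the second nosGAL4 control the nosGAL4 counts were 3 and 6, and without the first bamGAL4 library labelled GKD the bamGAL4 counts were 5 and 5. Su(z)2 rose by 3.21 on the log2 scale with nosGAL4 and 4.30 with bamGAL4, and ph-p by 2.68 and 4.01. Asx, for a subunit of a histone deubiquitinase, rose by 1.39 and 2.26, but a correction for transcript length left it uncalled with both drivers (edgeR adjusted p = 0.224 and 0.112). Sfmbt, a subunit of the complex that binds Polycomb response elements, had 160 and 208 CPM in the nosGAL4 control libraries against 38.5 and 42.0, and fell by 2.19 with nosGAL4.

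Of 24 trithorax group genes, 3 were called higher and 7 lower with nosGAL4, beside 33.5% and 25.7% of all genes, and 10 higher and 6 lower with bamGAL4, beside 35.0% and 33.1%. The median log2 changes were -0.00 and 0.53, beside 0.11 and -0.06 for all genes. With scaling to ribosomal protein genes the bamGAL4 counts were 15 and 1, and without the second bamGAL4 library labelled GKD they were 4 and 4. The histone methyltransferase gene trx rose by 2.52 (SE 0.32, edgeR adjusted p = 8.79e-05) and 3.38 (SE 0.33, edgeR adjusted p = 1.13e-05). A correction for transcript length left trx uncalled with both drivers (0.29 and 0.11 on the log2 scale). With that correction the list had 0 higher and 13 lower calls with nosGAL4, and 0 and 14 with bamGAL4. The chromatin remodeller gene kis turned from 1.41 to -1.34 with nosGAL4 and from 2.81 to -1.08 with bamGAL4 under it. Set1, for another histone methyltransferase, had log2 changes of 0.93 and 2.19 and was likewise uncalled with the correction (edgeR adjusted p = 0.693 and 0.115). The BAP complex gene Snr1 fell by 0.70 with nosGAL4 and by 1.69 with bamGAL4, the former call being lost without each of 3 nosGAL4 libraries in turn.

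The profiles most like each gene over the 8 libraries were found by Pearson's r of log2(CPM + 1) among 8950 other tested genes, as a description, since all libraries share the contrast of groups. For abd-A they were disco-r and CG8547, both with r of 0.999, and 1523 genes had r over 0.95. For Antp they were mew, for an integrin alpha subunit, and ham, for a zinc-finger protein, with 1503 genes over 0.95. For Abd-B they were dar1 and Nlg1, with 1470 genes. Ubx was closest to CG3597 and Nepl11 (r = 0.996 and 0.995, 196 genes over 0.95). The cofactor genes had few such companions, 19 genes for hth, led by the exocyst gene Exo84 (r = 0.981) and KFase, 15 for exd, led by Tango11 (r = 0.984) and RhoGDI, and 34 for tsh, led by CG7470 (r = 0.99) and CG10137.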

How the data were processed

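The deposited values are estimated counts per gene, 1 column per library, not scaled against each other. Salmon 1.2.1, STAR 2.7.5b, FastQC 0.11.8 and Trim Galore 0.6.6 appear, with build dm6, in the submitters' processing notes. The annotation, strand setting and gene filter were not given in the sources used here. Per the labels' protocols, total RNA was extracted with Trizol and libraries were made with a directional kit.

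After rounding to whole numbers, filterByExpr selected genes (minimum count 10, minimum total 15). They were scaled by TMM and tested with edgeR 4.0.16 (limma 3.58.1, R 4.3.3) in 1 robust quasi-likelihood fit to all 8 libraries with the 4 groups as levels and 4 residual degrees of freedom. P-values were Benjamini-Hochberg adjusted over the 8957 genes tested, with a threshold of 0.05. SE values come from the F statistic, and the prior count was 0.125. A group with 0 counts was set to a floor of 3 counts over the group, and for 1 to 3 counts the ratio of summed counts scaled by effective library size is given with its 95% counting interval. The fit was tried on simulated counts with 200 genes changed in 1 group, all drawn from genes expressed in the controls. That setting does not bear on genes near 0 in the controls.

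No libraries were merged, because within each group the counts differed beyond sampling noise (chi-square over its degrees of freedom 12.39 to 133.1). Replicate numbers did not pair the libraries, as the correlation of deviations was -0.0375 with nosGAL4 and -0.00325 with bamGAL4.

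Of 14094 gene identifiers, 14048 were found in the BDGP6.54 annotation used for positions and lengths. Members, gene lists and markers were chosen with earlier results of these data known. Genes named are the 8 members, stwl, the other Hox genes, up to 4 called genes of each list by smallest adjusted p, called genes of both complexes, and the 2 profiles most like each member. The genes tio, achi, vis, ftz, elav, cpx, nrv3, Syt1, slbo and Hr39 were named after their values were seen. Also named in this way were Yp1, Yp2, Yp3 and the markers of epidermis and trachea. So were the neuron markers and the Hox targets at 0 in all controls. Alternatives were RLE size factors, library totals, scaling to 81 ribosomal protein genes, DESeq2 1.42.0, no filter, a stricter filter (5 CPM in 2 libraries), each driver's own 4 libraries, a replicate block, a transcript length correction and leaving out each library. No sequence is printed.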

Additional observations from a re-analysis of the deposited data

How the results depend on the processing

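The calls of Antp, abd-A and Abd-B with both drivers, and of Ubx with bamGAL4, kept their direction and side of the threshold in all 13 alternatives each. These genes passed the filter only because of the libraries labelled GKD, so this stability is a description and no further support. Their nosGAL4 log2 changes ranged from 8.13 to 9.14 for abd-A and from 5.82 to 6.76 for Antp. The number of genes called higher with nosGAL4 (5 of 7) was 3 in a fit to the driver's own 4 libraries, where Ubx fell to the filter, and 4 to 5 when a library was left out. With bamGAL4 (7 of 7) it was 4 to 5 when a library was left out, with the calls of hth and tsh lost each time. With a replicate block the counts were 4 and 5, without Ubx with nosGAL4 and without hth and tsh with bamGAL4. The block does not rest on a pairing in the labels or the data, and it left 2 residual degrees of freedom. Under it, 4903 genes were called in all with nosGAL4, 5743 with bamGAL4 and 169 for the difference.

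The difference between drivers was the least stable. It gave 0 members lower in the fit reported, 1 with no filter, 4 with scaling to ribosomal protein genes and 0 to 2 when a library was left out. Over all genes it gave 240 calls, against 1069 with DESeq2, 537 with no filter, 3437 with ribosomal protein scaling, 133 with the length correction and 29 to 1570 when a library was left out. The highest count came without the second nosGAL4 library labelled GKD and the lowest without the second bamGAL4 one. Leaving out 1 library gave differences from -3.86 to 1.39 for Abd-B, from -8.55 to 3.81 for hth and from -0.61 to 0.074 for exd. They turned sign for Abd-B without the first nosGAL4 control (1.39), for hth without the second nosGAL4 control (3.81), for exd without the second bamGAL4 control (0.074) and for stwl with ribosomal protein scaling (-0.81). The bamGAL4 change of stwl turned to -0.46 with the length correction. None of these 5 values was called, and the cause was not tested.

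Scaling moved the split of all calls. With nosGAL4 it was 3004 higher and 2303 lower, against 2449 and 3246 with library totals and 2186 and 3283 with ribosomal protein scaling. With bamGAL4 it was 3138 and 2961, against 2841 and 3385 with library totals and 4125 and 1197 with ribosomal protein scaling. For the difference it was 136 and 104, against 119 and 161 with RLE, 104 and 176 with library totals and 94 and 3343 with ribosomal protein scaling. The median log2 change of all genes moved with ribosomal protein scaling from 0.11 to -0.42 with nosGAL4 and from -0.06 to 0.80 with bamGAL4, and with library totals to -0.28 and -0.27. Relative to that median, exd was 0.52 higher with nosGAL4 in the fit reported, 0.52 with ribosomal protein scaling and 0.49 with library totals, and 0.90, 0.93 and 0.92 higher with bamGAL4. With nosGAL4, exd was called by DESeq2 (0.70, adjusted p = 0.0308) and with the stricter filter (0.68, edgeR adjusted p = 0.04). With a floor of 10 counts, 4 of the 8 genes were at or below it in the nosGAL4 controls and 6 in the bamGAL4 controls. With the median transcript length in place of the longest, abd-A and exd exchanged places in the nosGAL4 libraries labelled GKD. They still overlapped there, while Abd-B and tsh no longer did. In the bamGAL4 libraries labelled GKD, abd-A then lay above exd without overlap, at 126 to 143 against 113 to 122 CPM per kb. In the same libraries hth (9.92 to 14.1) and Abd-B (9.22 to 10.3) then overlapped. Depth limits all folds against controls with few counts, and Scr was not detectable at this depth.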

Other observations

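The 0 against 169 counts of hth in the nosGAL4 controls was seen in few other genes. At 0 in the first nosGAL4 control with at least 169 counts in the second were 4 genes, hth, CG31683, CG42518 and Gyc76C, and the reverse held for 1 gene, CG46440. Such genes numbered 14 and 5 in the nosGAL4 libraries labelled GKD, 3 and 6 in the bamGAL4 controls and 0 in the bamGAL4 libraries labelled GKD. The gene CG42518 met this rule in 3 of the 4 groups. These genes were named after their values were seen.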
